A study of Mus musculus with 2 samples.

Results

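The 9 genes described here encode enzymes that break down amino acids in the liver, and they were taken by name from a liver RNA-seq comparison that listed 45777 genes: *Tat*, *Hpd*, *Hgd* and *Fah* of the tyrosine route, *Tdo2* of the tryptophan route, *Hal* of the histidine route, *Sds* of the serine route, and the aminotransferase genes *Agxt* and *Got1*. Each was found once in the deposited table, the estimated counts of its transcripts were summed, and 9 of 9 were among the 15857 genes that reached 10 counts in 1 or both libraries. The 2 libraries analysed here were made from liver of C57BL/6 mice on a high-fat diet (HFD), one from the group given an adeno-associated virus (AAV) that carries green fluorescent protein (AAV-GFP) and the other from the group given an AAV that carries *Wee1-AS* (AAV-*Wee1-AS*), a long noncoding RNA encoded opposite the *Wee1* gene. In the AAV experiment that the study describes, the diet began at 7 weeks of age and lasted 18 weeks, and the virus was given retro-orbitally at week 13 of the diet. The vector named AAV-*Wee1-AS* in the methods is of serotype AAV9 and carries a CMV promoter, which is active in many cell types and is not confined to hepatocytes. Both groups had the diet and a virus and differed by label only in the viral cargo, and no library from mice on a control diet was used here.

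Each group had 1 library, and the sources used here do not say whether a library held RNA of 1 mouse or of several. The series description speaks of 4 liver samples, while 2 libraries were analysed here. No test between groups was therefore possible, and no p-value is given. The difference between the libraries is given as a log2 ratio, AAV-*Wee1-AS* over AAV-GFP, after scaling the library sizes, with a 95% counting interval (exact, Clopper-Pearson) that covers the error of counting reads and not the variation between mice. The viral cargo, the mouse, the RNA preparation and the library cannot be told apart.

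In the liver, surplus amino acids are stripped of their nitrogen, and their carbon skeletons are sent to pyruvate, the citric acid cycle, ketone bodies or glucose. Tyrosine is first transaminated by tyrosine aminotransferase (TAT), and the product passes through 4-hydroxyphenylpyruvate dioxygenase (HPD) and homogentisate dioxygenase (HGD) to fumarylacetoacetate hydrolase (FAH), which yields fumarate and acetoacetate. Tryptophan dioxygenase (TDO2) opens the tryptophan ring and is the rate-limiting step of the kynurenine pathway, through which the liver also makes NAD. Genes of several of these enzymes, *Tat* and *Tdo2* among them, are classical targets of glucocorticoids and glucagon in hepatocytes.

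The promoter sequences of the 3 enzymes with the largest differences between the libraries, *Tdo2*, *Got1* and *Tat*, are shown first, because the values below turn on these genes. This order holds for the scaled counts. With the trends across genes with GC content and length removed, the largest log2 ratios were those of *Got1* (0.94), *Hpd* (0.71) and *Hal* (-0.63). Removal with the GC content of the coding part and the deposited length gave another order. The largest were then *Tdo2* (1.05), *Got1* (0.97) and *Hpd* (0.55), and *Hal* was at 0.0071. The printed promoters are RefSeq sequences of build GRCm38.p6, each running 5′ to 3′ on the strand of the gene. Each runs from 250 bases before the gene's start to 50 bases after it. For *Tat* this is the start of NM_146214, at 109990436, and not that of XM_030243506, a predicted transcript that starts at 109986078. *Tdo2* lies at chr3:81975679-81975978 on the minus strand, *Got1* at chr19:43524556-43524855 on the minus strand, and *Tat* at chr8:109990186-109990485 on the plus strand. Capitals mark the letters CCAAT, a common promoter element, or its reverse complement ATTGG. In *Tdo2* they also mark TATAAA, the letters of the core of a TATA box, which here start at -229 relative to the gene's start.
Tdo2: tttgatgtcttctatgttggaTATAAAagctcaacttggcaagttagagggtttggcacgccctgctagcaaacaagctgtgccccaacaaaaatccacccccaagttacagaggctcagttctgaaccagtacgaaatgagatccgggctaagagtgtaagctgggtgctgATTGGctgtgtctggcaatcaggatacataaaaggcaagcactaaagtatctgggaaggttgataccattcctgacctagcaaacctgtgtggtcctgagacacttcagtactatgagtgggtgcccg
Got1: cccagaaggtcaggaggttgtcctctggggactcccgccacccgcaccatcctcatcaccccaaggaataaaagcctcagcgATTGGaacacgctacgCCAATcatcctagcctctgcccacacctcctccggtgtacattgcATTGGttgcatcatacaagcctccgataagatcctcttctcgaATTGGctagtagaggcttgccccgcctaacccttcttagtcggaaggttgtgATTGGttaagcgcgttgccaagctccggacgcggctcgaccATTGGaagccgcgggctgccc
Tat: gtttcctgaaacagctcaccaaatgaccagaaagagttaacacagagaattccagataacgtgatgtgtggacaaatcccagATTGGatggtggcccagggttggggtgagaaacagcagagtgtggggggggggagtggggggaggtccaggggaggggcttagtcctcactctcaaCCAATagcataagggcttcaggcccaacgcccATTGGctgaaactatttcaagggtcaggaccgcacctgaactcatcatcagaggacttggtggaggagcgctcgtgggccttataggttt

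A promoter was found in the RefSeq table for 8 of the 9 enzymes, all but *Sds*. The *Hgd* window was placed by the start of NM_013547 and not by the earlier start of XM_030248978. Of 32851 mouse promoter windows of the same length, 37.4% held CCAAT on either strand, and 5 of the 8 enzyme promoters did (*Tat*, *Tdo2*, *Hal*, *Hgd* and *Got1*). The *Got1* window held 6 matches, a number reached by 26 windows, or 0.0791% of all. The *Tat* window held 3 matches, a number reached in 3.37% of windows, and the *Tdo2* window held 1, which starts 78 bases before the gene's start. TATAAA, present in 13.6% of windows on either strand, was found in *Tdo2*, *Hal* and *Hgd*. The matches start at -229, -28 and -139 relative to the gene's start. The letters AGAACA, part of glucocorticoid response elements, were present in 19% of windows and in 1 enzyme window, that of *Agxt*. TGACG, part of cyclic AMP response elements, was present in 20.8% of windows and in none of the 8. TTGCNNAA, the core bound by C/EBP factors, was present in 10.8% of windows and was found in *Hal* and *Hgd*. These are matches of letters only, none of them overlapped another in the 8 windows, and they say nothing of a factor's binding.

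The libraries held 55466182 (AAV-GFP) and 48079335 (AAV-*Wee1-AS*) estimated counts, and each enzyme had between 7588 and 117444 of them, so counting error was small for all 9. Of 11 hepatocyte markers, 10 were in the table, each with at least 63481 counts, and their summed level was 105781 TPM, a length-corrected level, in AAV-GFP and 109155 TPM in AAV-*Wee1-AS*. Of these 10, 5 were higher and 5 lower, with log2 ratios from -0.61 to 1.83. With the GC and length trends removed, 6 were higher and 4 lower. The most abundant of them, *Alb*, went from 37459 to 53289 TPM and weighs most in the sums. All 6 markers of kidney and pancreas were listed at 0 in both libraries. Markers of other cells of the liver were lower in sum in AAV-*Wee1-AS*: red blood cells, 3357 and 1789 TPM with 5 of 5 genes lower; stellate cells, 163 and 128 TPM with 4 of 7 genes lower, 3 of them by more than 2-fold, and 1 more than 2-fold higher (log2 ratios from -2.30 for the collagen gene *Col1a1* to 1.48 for *Lrat*); and Kupffer cells, 333 and 270 TPM with 2 of 6 genes lower and 4 higher. Endothelial markers summed to 160 and 144 TPM with 3 of 6 genes lower, bile duct markers to 44.1 and 37.9 TPM with 3 of 5 lower, and lymphocyte markers to 3.74 and 2.47 TPM with 5 of 6 lower. In each of these lists 2 genes had counting intervals wholly below 0. Intervals wholly above 0 were found for 2, 1 and 1 genes. No lymphocyte marker had more than 67 counts. With the GC and length trends removed, the median log2 ratio went from -0.88 to -0.06 for the red blood cell markers (4 of 5 lower) and from -0.57 to -0.65 for the stellate markers (7 of 7 lower, *Lrat* at -0.08), and Kupffer markers more than 2-fold higher went from 3 to 1. Of the endothelial, bile duct and lymphocyte markers, 5 of 6, 2 of 5 and 4 of 6 were then lower. The part of all these cells in the differences between the libraries was not tested.

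On the scaled counts *Tdo2* was the only one of the 9 enzymes that differed by more than 2-fold, and it was 3.69-fold higher in AAV-*Wee1-AS*. With the GC and length trends removed its log2 ratio was 0.42, the median of the 9, and none of them was past 2-fold. Other ways of removal are given further on. With the longest annotated transcript *Got1* was past 2-fold, at 1.06, and with the coding GC content and deposited length *Tdo2* was, at 1.05. On the scaled counts 22.5% of all 15857 genes were more than 2-fold higher and 8.43% more than 2-fold lower, so 1 of 9 enzymes higher and 0 of 9 lower did not exceed the shares across all genes. Among the 1642 most abundant genes, those that reached 5000 counts in either library, which include all 9 enzymes, the shares were 11.4% and 4.32%. By sign alone, 4 enzymes were higher (*Tdo2*, *Got1*, *Hpd* and *Hgd*) and 5 lower (*Tat*, *Sds*, *Agxt*, *Hal* and *Fah*), and all 9 counting intervals excluded a log2 ratio of 0, as they did for 39.6% of all genes upward and 37.4% downward, or 33% and 63.1% of the 1642 abundant genes. Their median log2 ratio was -0.03, beside -0.0020 over all genes and -0.28 over the abundant genes. With the GC and length trends removed, 7 of the 9 enzymes were higher and 2 lower, beside 7522 higher and 7593 lower of all genes.

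**Figure D1:**
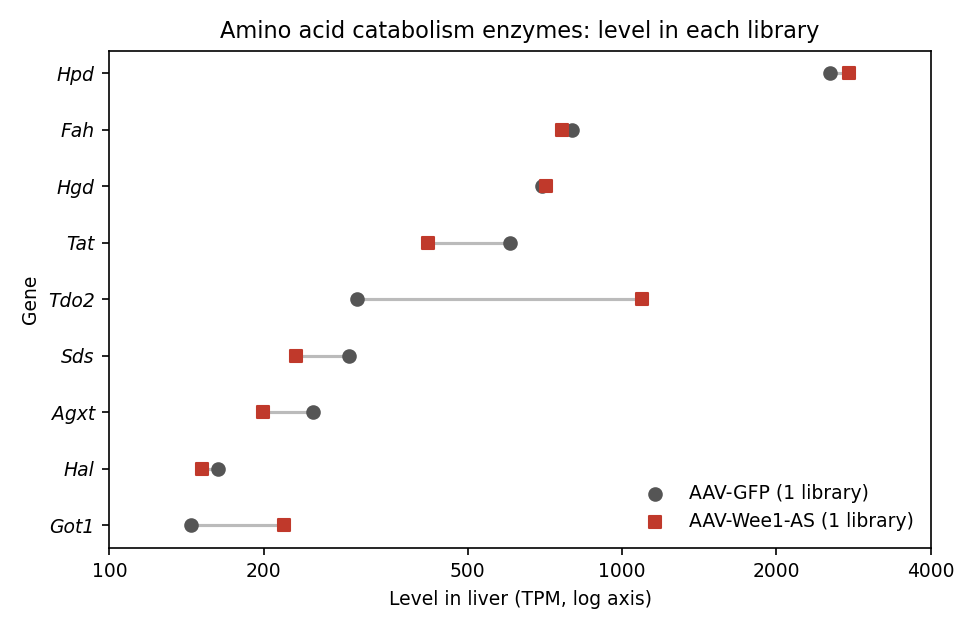
Level of each enzyme in the 2 libraries, in TPM on a log axis, with a circle for AAV-GFP and a square for AAV-Wee1-AS (1 library each, no error bars). Tdo2 goes from 304.5 to 1093 TPM, while Hpd, Hgd, Fah and Hal have nearly coincident symbols.

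Levels of different genes are compared here in TPM. *Hpd* was the most abundant of the enzymes in both libraries and took 43.9% of their summed TPM in AAV-GFP and 42.3% in AAV-*Wee1-AS*. In AAV-GFP it was followed by *Fah*, *Hgd*, *Tat*, *Tdo2*, *Sds*, *Agxt*, *Hal* and *Got1*. In AAV-*Wee1-AS* the order was *Hpd*, *Tdo2*, *Fah*, *Hgd*, *Tat*, *Sds*, *Got1*, *Agxt* and *Hal*, so *Tdo2* moved from place 5 to place 2 and *Got1* left the last place. With 1 library a group, no spread between mice is known for neighbours in these orders. The 9 enzymes summed to 5802 TPM in AAV-GFP and 6561 TPM in AAV-*Wee1-AS*, and without *Tdo2* the sums were 5498 and 5467 TPM.

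*Tdo2* (chr3:81958412-81975728, mm10, 1 annotated transcript) had 16398 counts and 304.5 TPM in AAV-GFP and 49900 counts and 1093 TPM in AAV-*Wee1-AS*. Its log2 ratio was 1.88 (95% counting interval 1.86 to 1.91), and 7.73% of all genes had a higher one. In a bulk liver sample, more cells that express a gene and more RNA per cell cannot be told apart, and this applies to every value below. The ratio of *Tdo2* to *Tat*, 2 genes with shared hormonal control, went from 0.504 to 2.62 in TPM between the libraries, and with the trends removed the log2 ratios of the 2 genes were 0.42 and -0.57. *Tdo2* was also among the genes with the lowest share of G and C bases, a property that moved with the log2 ratio across all genes, as described further on.

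Other genes of tryptophan breakdown differed in both directions. Of the 10 listed, 6 were higher and 4 lower in AAV-*Wee1-AS*, and 2 were more than 2-fold higher, beside 22.5% of all genes. *Kmo*, which hydroxylates kynurenine, had 112 TPM in AAV-GFP and 256 TPM in AAV-*Wee1-AS* (log2 ratio 1.23, interval 1.19 to 1.26). *Acmsd*, which diverts the pathway away from NAD synthesis, was scarce, with 155 and 400 counts (log2 ratio 1.63, interval 1.37 to 1.92). *Afmid*, the formamidase that acts directly after *Tdo2*, had 61.6 and 67.4 TPM and a log2 ratio of 0.17. *Qprt*, whose enzyme turns quinolinate toward NAD, was the lowest of the group on the scaled counts, with 413 and 257 TPM and a log2 ratio of -0.65. These values depended on the correction for base composition and transcript length described further on. With those trends removed, *Kmo* was at 0.44, *Acmsd* at 0.63, *Afmid* at 0.55 and *Qprt* at -0.08, beside 0.42 for *Tdo2*. With the GC content of the coding part and the deposited length they were at 0.55, 1.37, 0.65 and 0.21, beside 1.05 for *Tdo2*.

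In the tyrosine route the first enzyme was lower, and on the scaled counts the later ones lay within 0.16 of a log2 ratio of 0. *Tat* (chr8:109986078-109999804) had 47329 counts and 604 TPM in AAV-GFP and 27830 counts and 418 TPM in AAV-*Wee1-AS*, a ratio of 0.713 (log2 ratio -0.49, interval -0.51 to -0.47). On the scaled counts it was the enzyme with the lowest log2 ratio of the 9, and 71.9% of all genes had a higher one. *Tat* stayed lower, with log2 ratios between -0.62 and -0.33, under each of the 13 other ways of processing the counts that were tried.

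*Hpd* (chr5:123171807-123182723) had 2547 TPM in AAV-GFP and 2777 TPM in AAV-*Wee1-AS*, with a log2 ratio of 0.16 (interval 0.15 to 0.18). *Hgd* (chr16:37579742-37632026) had 698 and 709 TPM, with a log2 ratio of 0.04 (interval 0.02 to 0.06). *Fah* (chr7:84585159-84605942) had 799 and 762 TPM, with a log2 ratio of -0.03 (interval -0.05 to -0.0079). With the trends removed these 3 were at 0.71, 0.02 and 0.52. The sign of *Hgd* was negative in 6 of 13 alternatives, and that of *Fah* was positive in 3 of 13. *Gstz1*, the isomerase between HGD and FAH, had 897 and 902 TPM and a log2 ratio of 0.05.

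**Figure D2:**
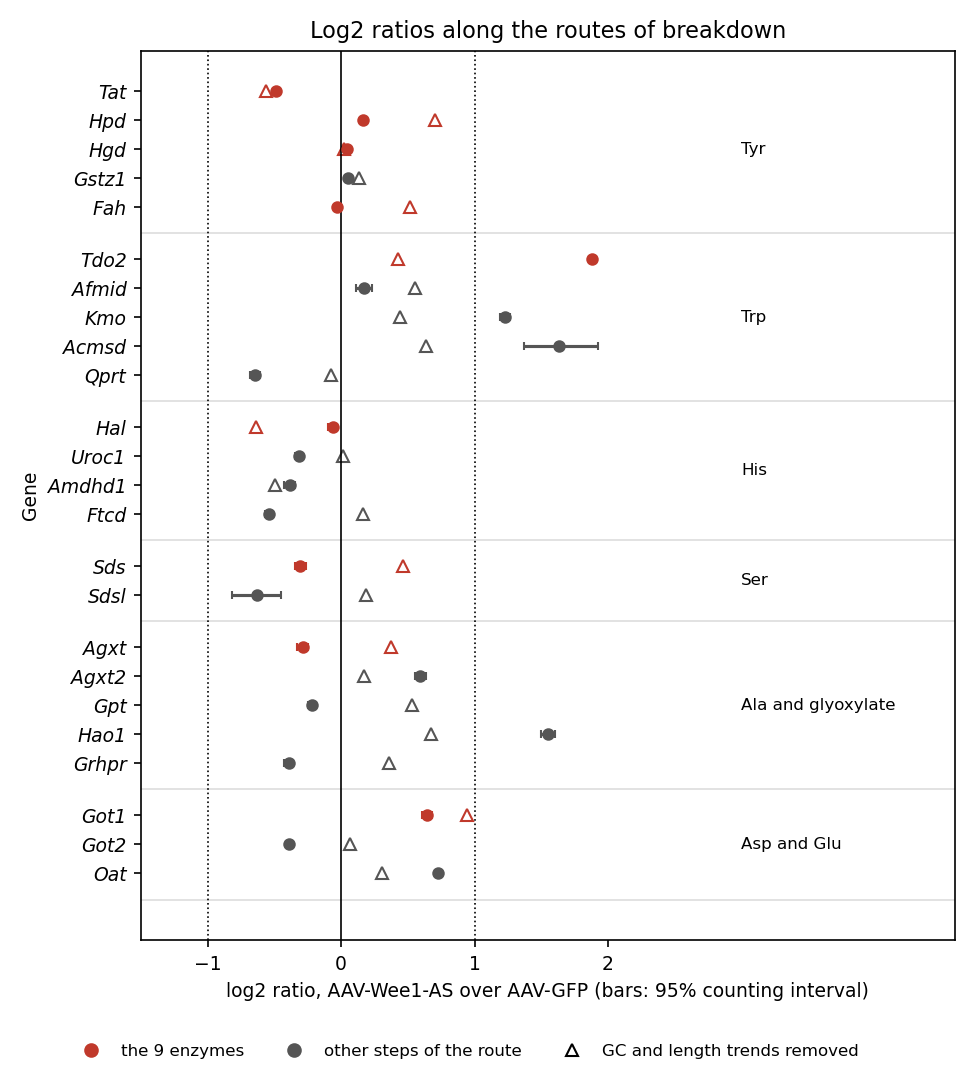
Log2 ratio, AAV-Wee1-AS over AAV-GFP, of the 9 enzymes (red) and other genes of their routes (grey), with 95% counting intervals as bars and dotted lines at 2-fold. Open triangles give the log2 ratio after removal of the trends across genes with GC content and with length, and for Tdo2 this moves the value from 1.88 to 0.42.

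The 4 genes of the histidine route were lower in AAV-*Wee1-AS* by less than 2-fold, as were many genes of like abundance: of the 1642 abundant genes, 63.1% had intervals wholly below 0, and their median log2 ratio was -0.28. *Hal* (chr10:93488768-93516761), histidine ammonia-lyase, which makes urocanate, had 14906 counts and 163 TPM in AAV-GFP and 11764 counts and 152 TPM in AAV-*Wee1-AS* (log2 ratio -0.06, interval -0.10 to -0.03). *Uroc1*, urocanate hydratase, had 305 and 238 TPM and a log2 ratio of -0.32. *Amdhd1*, which opens the imidazolone ring, had 144 and 107 TPM and a log2 ratio of -0.39. *Ftcd*, which passes the last fragment to folate, had 303 and 204 TPM and a log2 ratio of -0.54. Once trends across genes with GC content and length had been removed, *Hal* was at -0.63 and *Amdhd1* at -0.50, while *Uroc1* at 0.01 and *Ftcd* at 0.16 were no longer lower. With the GC content of the coding part and the deposited length, none of the 4 was lower (*Hal* 0.0071, *Amdhd1* 0.04, *Uroc1* 0.03 and *Ftcd* 0.04).

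*Sds* (chr5:120476547-120483932), serine dehydratase, which turns serine into pyruvate, had 11384 counts and 293 TPM in AAV-GFP and 7588 counts and 231 TPM in AAV-*Wee1-AS*. Its log2 ratio was -0.31 (interval -0.35 to -0.27), a ratio of 0.808. Its paralog *Sdsl* was scarcer and had 15.9 and 10.1 TPM with a log2 ratio of -0.63, and both genes changed sign with the trends removed (*Sds* 0.46, *Sdsl* 0.18). *Sds* overlaps *Plbd2*, which had 7193 and 3560 counts, and because the strand setting of the counting is not given in the sources used here, reads in the shared stretch may have been split between the genes. Of the 8 genes of serine, threonine and glycine breakdown that passed the filter, 3 were higher and 5 lower, from *Gcat* at -0.67 to *Dld*, a subunit shared by several dehydrogenase complexes, at 1.61 (-0.07 and 0.26 with the trends removed). A ninth, *Tdh*, had 0 and 3 counts and was not compared.

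*Agxt* (chr1:93135240-93145421), which detoxifies glyoxylate to glycine in peroxisomes, had 12787 counts and 250 TPM in AAV-GFP and 8634 counts and 199 TPM in AAV-*Wee1-AS*. Its log2 ratio was -0.29 (interval -0.33 to -0.25). *Hao1*, the glycolate oxidase that produces glyoxylate, was higher, with 60.1 and 172 TPM and a log2 ratio of 1.55. *Grhpr*, which reduces glyoxylate, had 500 and 371 TPM and a log2 ratio of -0.39. *Agxt2*, the mitochondrial relative of *Agxt*, had 103 and 152 TPM and a log2 ratio of 0.59, and *Gpt*, alanine aminotransferase, had 367 and 308 TPM and a log2 ratio of -0.21. With the trends removed all 5 were higher (*Agxt* 0.38, *Hao1* 0.67, *Grhpr* 0.36, *Agxt2* 0.17 and *Gpt* 0.53), and *Agxt*, *Grhpr* and *Gpt* changed sign in each of the 3 ways of removal tried. *Hao1* was past 2-fold, at 1.24, with the GC content of the coding part and the deposited length.

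*Got1* (chr19:43499752-43524605), the cytosolic aspartate aminotransferase, was the least abundant of the 9 in AAV-GFP and the second in the order of log2 ratios. It had 9766 counts and 144 TPM in AAV-GFP and 12575 counts and 219 TPM in AAV-*Wee1-AS*, a ratio of 1.56 (log2 ratio 0.64, interval 0.60 to 0.68), and 30.8% of all genes had a higher log2 ratio. *Got2*, the mitochondrial form, had 811 and 602 TPM and a log2 ratio of -0.39, or 0.07 with the trends removed, where *Got1* was at 0.94. *Got1* therefore made up 15.1% of the summed TPM of both forms in AAV-GFP and 26.7% in AAV-*Wee1-AS*. On the scaled counts *Oat*, ornithine aminotransferase, was the highest of the 4 other genes listed for aspartate and glutamate, with 434 and 699 TPM and a log2 ratio of 0.73. With the trends removed *Oat* was at 0.31, below *Gls2*, another of the 4, at 0.45.

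Across the whole list of 63 other genes of amino acid breakdown, 62 passed the filter. Of these, 35 were higher and 27 lower, 10 by more than 2-fold upward and 1 by more than 2-fold downward, beside the shares of 22.5% and 8.43% over all genes. Their median log2 ratio was 0.04. With the GC and length trends removed, 44 were higher and 18 lower. Past 2-fold there was then 1 higher and 1 lower, beside 7.11% and 7.96% of all genes. Among the 17 genes of branched-chain amino acid breakdown, 13 were higher and 5 of these by more than 2-fold: *Hibch* (8.16 and 45.6 TPM, log2 ratio 2.51), *Ppm1k*, the phosphatase that activates the branched-chain ketoacid dehydrogenase (3.24 and 15.8 TPM, 2.31), *Acadsb* (8.22 and 38.2 TPM, 2.25), *Dbt*, a core subunit of that dehydrogenase (7.16 and 29.2 TPM, 2.07), and *Aldh6a1* (89.1 and 177 TPM, 1.05, but under 2-fold in 9 of 13 alternatives). *Bckdk*, the kinase that inactivates the same complex, was the lowest of that group, with 13.2 and 7.08 TPM and a log2 ratio of -0.86. With the trends removed, 12 of the 17 were higher and 5 lower, and 1, *Hibch*, was past 2-fold, at 1.38. *Aass*, the first enzyme of lysine breakdown, had 57.8 and 118 TPM and a log2 ratio of 1.07, which was under 2-fold in 6 of 13 alternatives and 0.05 with the trends removed. *Csad*, whose enzyme acts on the route from cysteine to taurine, was the only gene of the list more than 2-fold lower, with 87.5 and 29.8 TPM and a log2 ratio of -1.47 (interval -1.54 to -1.40).

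The log2 ratio moved with base composition across the whole table. When the 15115 genes with a known transcript sequence were split into 10 bins of equal size by GC content, the median log2 ratio was 1.52 in the lowest bin, where 69.3% of genes were more than 2-fold higher, and -0.68 in the highest, where 1.12% were. *Tdo2* fell in the lowest bin, with a transcript GC content of 39.6%, and 33.3% of the genes in that bin had a higher log2 ratio. *Got1* had a GC content of 52.3% and stood further from its bin, where the median was -0.35 and 6.75% of genes were higher. *Tat* had 49.6% and lay under its bin's median of 0.13, with 84.0% of genes higher. In all, 6 of the 9 enzymes lay above the median of their own bin (*Tdo2*, *Got1*, *Hpd*, *Sds*, *Fah* and *Agxt*) and 3 below it (*Tat*, *Hal* and *Hgd*), and of the 62 other genes 44 lay above and 18 below.

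**Figure D3:**
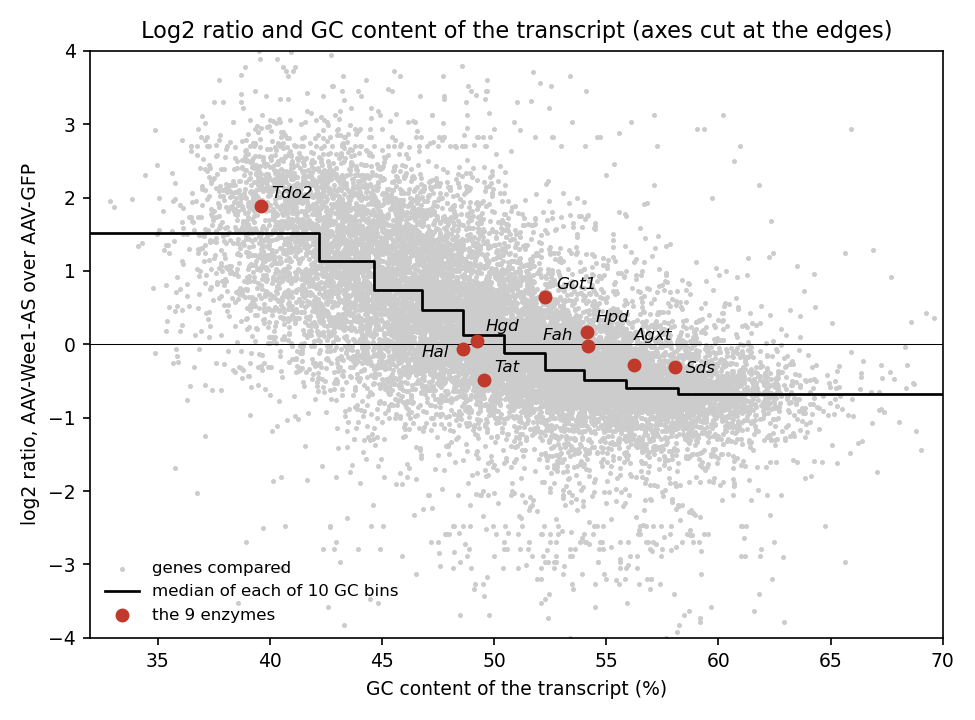
Log2 ratio of the 15115 compared genes with a known transcript sequence (grey) against the GC content of the transcript in percent, with both axes cut at the edges. The median of each of 10 bins is a step line and the 9 enzymes are in red. The step line descends from 1.52 to -0.68, and Tdo2 at 39.6% GC sits above its bin's median, as Got1 does at 52.3%.

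Once both trends, with GC content and with the length of the transcript, had been removed, none of the 9 enzymes was past 2-fold, beside 7.11% of all genes higher and 7.96% lower, and 2.71% and 3.87% of the abundant genes. *Got1* was then the highest, at 0.94, followed by *Hpd* at 0.71. *Tdo2* was at 0.42, and it was at 0.59 when the longest annotated transcript was used and at 1.05 with the GC content of its coding part, 45.2%, and its deposited length. The transcript sequence behind the value of 0.42 was 3431 bases long, while the deposited length was 1635 bases. *Sds*, *Fah* and *Agxt* changed sign, to 0.46, 0.52 and 0.38, and *Tat* was again lower, at -0.57. *Hal* was at -0.63, but at 0.0071 with the GC content of its coding part and its deposited length. For *Hal* these lengths were 5319 bases in the sequence used and 2776 bases as deposited. In the branched-chain group *Hibch* was the only gene still past 2-fold, at 1.38, with *Dbt* at 0.79, *Acadsb* at 0.72 and *Ppm1k* at 0.60, and *Csad* was at -1.08. With the coding GC content and deposited length *Hibch* (1.51), *Dbt* (1.45), *Ppm1k* (1.39) and *Acadsb* (1.38) were past 2-fold, and *Csad*, at -0.84, was not. The part of base composition in the difference between the libraries was not tested, since each group had 1 library.

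Below the level of the gene, the split of counts between annotated transcripts differed for *Agxt* and *Hgd*. For *Agxt*, NM_001276710 held 17.4% of the gene's counts in AAV-GFP (2227 counts) and 1.80% in AAV-*Wee1-AS* (155 counts), and NM_016702 held the remainder, with 10560 and 8479 counts. The log2 ratio of NM_016702 alone was -0.04, beside -3.55 for NM_001276710, both after scaling for library size. For *Hgd*, XM_030248978, a predicted transcript with an earlier start, went from 64.7% of the counts to 38.0%, NM_013547 from 16.9% to 35.6%, and NR_027778, annotated as noncoding, from 18.5% to 26.4%. The log2 ratio of *Hgd* was 0.04 for the sum and -0.73 for its most abundant transcript alone. In *Tat* and *Sds* the main transcript kept 99.5% and 98.8%, and 92.9% and 93.5%, of the counts, and the other 5 enzymes had 1 transcript each. The *Agxt* transcripts share their start, end and length, and counts of near-identical transcripts are estimates whose error is not covered by the counting intervals.

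**Figure D4:**
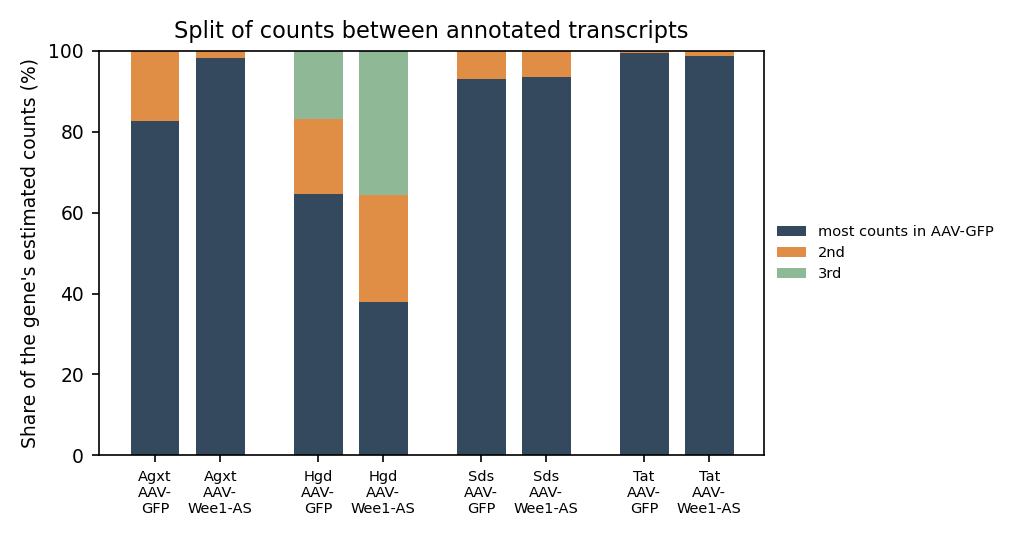
Share of each gene's estimated counts (percent) that each annotated transcript held in the AAV-GFP and AAV-Wee1-AS libraries, for the 4 enzymes with more than 1 transcript, stacked in order of counts in AAV-GFP. The main transcript of Hgd goes from 64.7% to 38.0%, that of Agxt from 82.6% to 98.2%, and those of Sds and Tat hardly move.

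*Hal* and *Sds* are among the genes expressed mainly by hepatocytes near the portal vein. The 10 periportal markers, which include both, summed to 7343 TPM in AAV-GFP and 7292 TPM in AAV-*Wee1-AS*, with 4 genes higher and 6 lower. The 10 pericentral markers summed to 11584 and 14113 TPM, with 7 genes higher and 3 lower. With the trends removed, 7 genes were higher and 3 lower in both lists, with median log2 ratios of 0.36 and 0.26. The part of zonation in the values of *Hal* and *Sds* was not tested.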

How the data were processed

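Poly(A) RNA of mouse liver was sequenced as 2 stranded paired-end libraries, and the authors deposited 1 table of 129299 RefSeq transcripts (mm10) with an estimated read count, an FPKM value and a TPM value per transcript and library. The submitters' processing notes name Trimmomatic 0.38, HISAT2 2.1.0, SAMtools 1.9 and StringTie 2.1.3b, without their settings. The deposited estimated counts are whole numbers and were summed per gene symbol. The deposited TPM and FPKM values were summed likewise. Library sizes were scaled by TMM (edgeR 4.0.16, R 4.3.3), with factors of 1.03 and 0.975. Log2 ratios were taken with a prior count of 2 over the 15857 genes that reached 10 counts in 1 or both libraries. Exact intervals (scipy 1.17.1) rest on each gene's share of counts between the libraries. As each group had 1 library, differences past 2-fold are described and not tested. GC content was taken for 15115 genes, 13773 of them from the transcript matched to RefSeq, and its trend and that of length were removed by lowess with a span of 0.3 (statsmodels 0.14.6). The steps were run on simulated data with counting noise only. A trend with GC content, but none with length, was added to a further simulated library, which was scaled by plain totals. The removal of a length trend was therefore not checked. The alternatives tried were DESeq2 1.42.0 size factors, plain library totals, upper quartile scaling, totals without the 20 most abundant genes, other count filters, a prior count of 0.5, FPKM or TPM with a pseudocount of 1, the most abundant transcript alone, and removal of the GC and length trends. Removal with the longest transcript, or with the coding GC content and deposited length, was chosen after seeing the data. The 9 enzymes, the lists of related genes and the markers were chosen with earlier results of these data known. The text names every enzyme, its direct neighbours in the route, list members past 2-fold, the highest or lowest of a group, and 6 regulators and response genes chosen by name. *Alb*, *Col1a1*, *Lrat*, *Per1*, *Tsc22d3*, *Sgk1*, *Dusp1* and *Ddit4* were named after their values were seen. *Wee1-AS* itself was not analysed here. One neighbouring gene is not reported here.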

Additional observations from a re-analysis of the deposited data

How the results depend on the processing

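No paired analysis was possible because each group has 1 library, and for the same reason no library could be left out. *Tdo2* was the only enzyme past 2-fold in each alternative that kept the GC and length trends, with log2 ratios of 1.75 to 1.88. With both trends removed 0 enzymes were past 2-fold higher; with the longest transcript it was 1, *Got1* at 1.06, and with the coding GC content 1, *Tdo2* at 1.05. The median log2 ratio of the enzymes was -0.10 with library totals, -0.16 with upper quartile scaling (which moved the median of all genes by -0.13), -0.093 without the 20 most abundant genes, -0.092 with FPKM, -0.068 with TPM, and 0.42, 0.44 and 0.40 with the trends removed in the 3 ways. That of the other amino acid genes was -0.028, -0.089, -0.020, -0.022, 0.0019, 0.20, 0.17 and 0.31 in the same order, and -0.000921 with the most abundant transcript alone. The number of those genes past 2-fold higher, 10, was 1, 1 and 6 with the trends removed in the 3 ways, and past 2-fold lower, 1, was 2 with the longest transcript and 0 with the coding GC content. *Aldh6a1* changed sign with the most abundant transcript alone (-0.13) and with the trends removed (-0.12, or -0.038 with the longest transcript). *Ppargc1a* did so with the trends removed (-0.38, or -0.27). The causes were not tested. Counting depth limits none of the enzymes' ratios, whereas the variation between mice is unknown for all of them.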

Other observations

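Genes that regulate these enzymes differed in both directions between the libraries. Of 17 transcription factors and receptors listed, 7 were higher and 10 lower in AAV-*Wee1-AS*, beside 7915 higher and 7942 lower of all 15857 genes. With the GC and length trends removed, 11 of the 17 were higher and 6 lower. *Nr3c1*, the glucocorticoid receptor, had 671 counts in AAV-GFP and 3025 in AAV-*Wee1-AS* (log2 ratio 2.45, interval 2.33 to 2.57). *Creb1*, which mediates the transcriptional response to cyclic AMP, had 96 and 404 counts (log2 ratio 2.32, interval 2.03 to 2.69), and the coactivator gene *Ppargc1a* had 103 and 216 counts (log2 ratio 1.33, interval 1.00 to 1.70). These 3 genes had transcript GC contents of 41.5%, 39.6% and 41.7%, and with the GC and length trends removed their log2 ratios were 0.74, 0.37 and -0.38, or 1.03, 1.21 and 0.35 with the coding GC content and deposited length. Both scarce genes also moved with other settings, *Creb1* between 0.76 and 6.68 and *Ppargc1a* between 0.47 and 6.89, and *Ppargc1a* was not past 2-fold higher in 5 of 13 alternatives. *Nr0b2*, a repressor induced by bile acids, had 2304 and 872 counts and a log2 ratio of -1.12, or -0.36 with the trends removed. *Gcgr*, the glucagon receptor, was at -0.48, *Hnf4a*, a hepatocyte identity factor, at -0.05, and *Klf15*, a regulator of amino acid breakdown, at -0.72. With the trends removed *Gcgr* was at 0.22 and *Hnf4a* at 0.13, both positive in all 3 ways of removal, and *Klf15* at -0.13.

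Of 9 genes that respond to glucocorticoids or glucagon, 3 were higher and 6 lower in AAV-*Wee1-AS*, beside 7915 and 7942 of all genes. The counts were also 3 and 6 with the GC and length trends removed. *Fkbp5*, a chaperone that binds the glucocorticoid receptor complex, had 1441 and 3538 counts and a log2 ratio of 1.57 (interval 1.48 to 1.66), and it was past 2-fold with the trends removed as well, at 1.79, 1.69 and 1.11 in the 3 ways of removal. *Igfbp1* had 1832 and 697 counts and a log2 ratio of -1.11, or -0.95, -0.88 and -0.37 with the trends removed in the 3 ways, all under 2-fold. The other 5 lower genes, *Per1*, *Tsc22d3*, *Sgk1*, *Dusp1* and *Ddit4*, had log2 ratios of -0.75, -0.40, -0.32, -0.63 and -0.96, and were between -0.81 and -0.09 with the trends removed. The gluconeogenic genes *Pck1*, with 759 and 840 TPM, and *G6pc*, with 114 and 155 TPM, had log2 ratios of 0.19 and 0.47, or 0.54 and 0.09 with the trends removed. With 1 library a group, these values are descriptions and none was tested.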
